A study of Homo sapiens with 4 samples.

Results

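The genes described here build the autophagosome or set the activity of mTORC1, the kinase complex that holds autophagy back. They are 47 genes chosen by symbol, out of 57905 genes listed for each library, and all 47 had a single entry. RNA was sequenced from A549, an established human lung adenocarcinoma line of non-small cell type, in 2 libraries of cells exposed for 24 h to GMI at 0.6 µM, an immunomodulatory protein from Ganoderma microsporum, and in 2 control libraries labelled with the same time. All cells were grown in serum-containing medium, the cells were not genetically altered as far as the labels say, and the stated aim was to profile differential expression after GMI. Separate cultures are not mentioned in the labels, so the p-values reflect how far these libraries spread, which may be technical.

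In macroautophagy a double membrane closes around cargo and fuses with the lysosome. The ULK1 kinase complex starts the process, and the BECN1–PIK3C3 lipid kinase complex marks the membrane with phosphatidylinositol 3-phosphate. WIPI proteins read that mark, and ATG2 and ATG9 proteins help to feed lipid into the growing sheet. A ubiquitin-like conjugation system then fixes ATG8 proteins (the LC3 and GABARAP families) to the membrane, where they hold cargo receptors such as SQSTM1. In fed cells mTORC1, recruited to the lysosome by Rag GTPases, restrains the ULK1 complex and keeps the transcription factors TFEB and TFE3, which drive lysosome and autophagy genes, in the cytosol.

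After GMI, 15 of the 47 genes had higher RNA levels and 0 had lower ones. The 15 lay in 5 of the 8 groups: 3 genes of initiation, 3 of membrane supply, 3 ATG8 genes, 3 cargo receptors and 3 mTORC1 regulators. None of the 6 nucleation, 9 conjugation or 2 fusion genes passed the test. Of all genes tested, 9.3% were called higher and 6.12% lower, so groups this small could hold 0 calls without differing from other genes. The changes were moderate: ratios of group means among the 15 ran from 1.23 for OPTN to 1.68 for RRAGD, and 0 members reached 2-fold on the test scale.

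The test was limma on log2(FPKM + 1), with Benjamini-Hochberg adjustment across the 11598 genes tested and a threshold of 0.05. FPKM scale a gene's fragments by its length and by the fragments of the library, so they give a gene's share of the RNA and not its amount per cell. They show neither the total RNA per cell nor the number of cells. All fold changes below are GMI over control on that log2 scale, which understates changes of low genes. Over all genes tested, 9.3% were called higher and 6.12% lower, against 31.9% of the members higher. A positive log2 fold change was found for 31 members (66%, against 48.7% of all genes). The median log2 fold change was 0.10 over the members and -0.01 over all genes tested. Both GMI libraries lay above both controls for 26 members (55.3%, against 29.8% of all genes) and below both for 8 members (17.0%, against 30.4%). At an unadjusted limma p under 0.05, 19 members were higher (17.2% of all genes were) and 1, RPTOR, lower (15.0% of all genes were). Because the members were chosen with earlier results of these data known, these shares are descriptions.

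**Figure D1:**
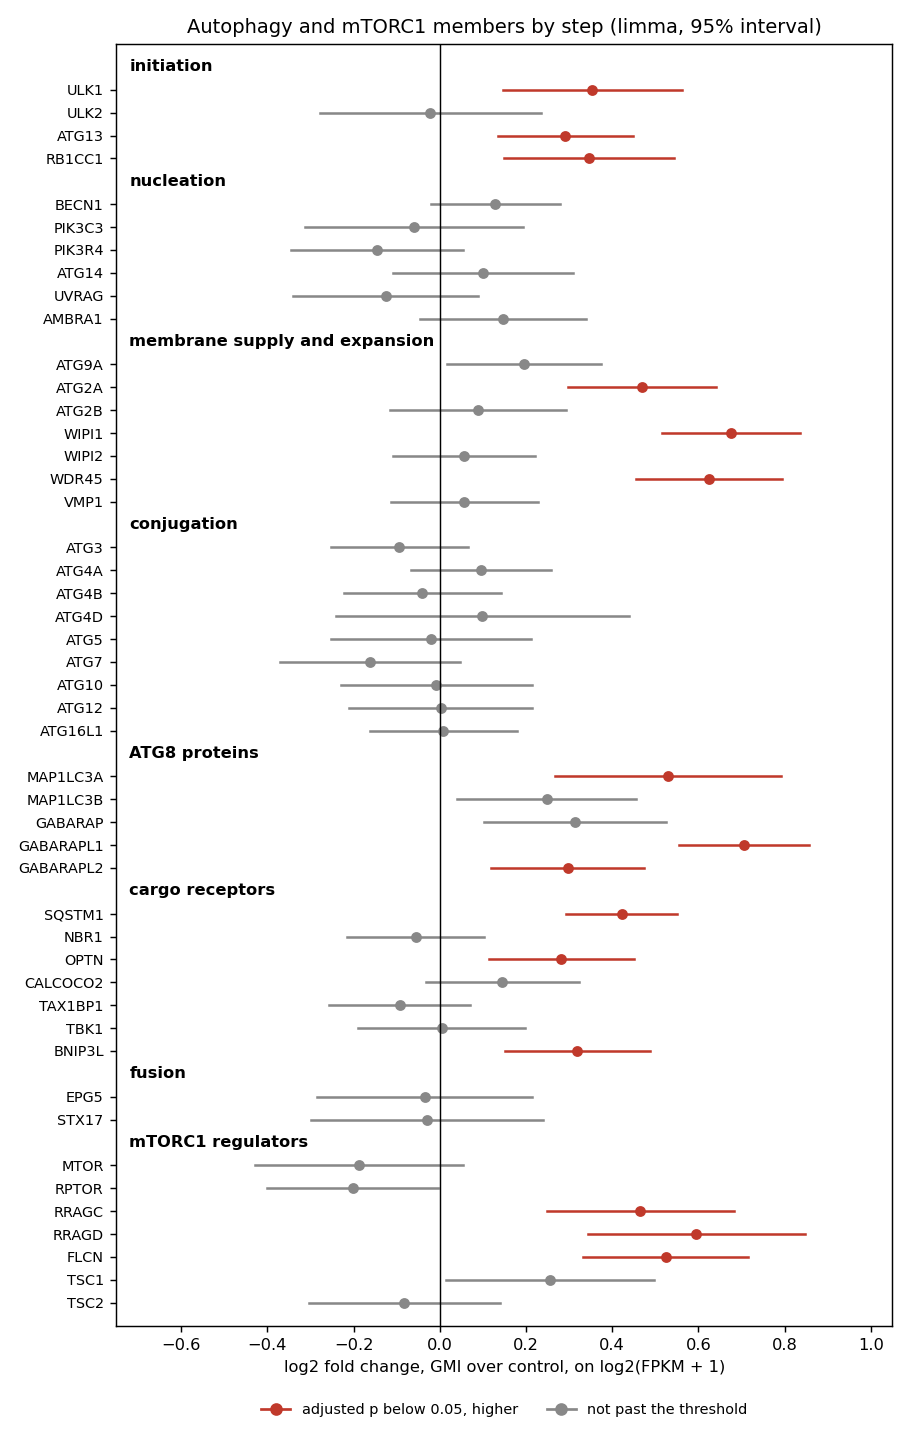
Log2 fold change (x axis, GMI over control on log2(FPKM + 1)) of each of the 47 members, grouped by step, with the limma 95% confidence interval. Red points are the 15 members past an adjusted p of 0.05, all to the right of 0, and grey points are the other members, which include every nucleation, conjugation and fusion gene. Of all genes tested, 9.3% were called higher, so 0 calls in such small groups does not set them apart.

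The calls depended on having both controls. Without control replicate 1, 0 of the 15 passed (adjusted p from 0.0532 to 0.248), and 74 genes did in the whole table, against 1789 with all libraries. Without control replicate 2, 0 of the 15 passed as well (0.0622 to 0.287), with 45 genes in the whole table. Such a fit takes the remaining control to vary as the GMI libraries do. Without GMI replicate 1, 11 of the 15 passed, and without GMI replicate 2, 8 of the 15 did. All 15 kept a positive log2 fold change in each of these 4 fits. This had to be so, because in all 15 both GMI libraries lay above both controls, and it is no sign of stability.

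Fragment totals recovered from the FPKM steps were 20560000 to 24090000 per library. The members ranged from about 100 fragments in a library for STX17 to about 67000 for SQSTM1, estimated with the exon lengths of another annotation. Each of the 47 was at 1 FPKM or more in all 4 libraries, so none passed the filter on low values through 1 group alone. Of the markers used to check the cells, the epithelial KRT8 and KRT18 were abundant (KRT8 at 1841 to 1981 FPKM), while EPCAM was at 0.29 to 0.35 FPKM. KRT18 fell to 739.6 and 700.46 FPKM after GMI, against 884.53 and 845.64 FPKM in controls (log2 fold change -0.26, limma adjusted p = 0.0339). CDH1, at 2.55 and 2.35 FPKM after GMI, against 2.16 and 1.96 FPKM, and KRT19, at 0.96 and 0.88 FPKM, against 0.44 and 0.36 FPKM, lay the other way, and CDH1 did not pass while KRT19 was below the filter. The 5 epithelial markers summed to 2657.5 to 2684.98 FPKM in GMI libraries and 2689.41 to 2815.14 FPKM in controls. Of 6 alveolar type 2 markers, whose sum was 9.52 to 10.28 FPKM in GMI libraries and 7.35 to 8.55 FPKM in controls, only ABCA3 was at 1 FPKM or more in every library, and SFTPC was at 0.04 FPKM or less. Summed leukocyte markers were at 3.61 to 4.69 FPKM in GMI libraries and 2.0 to 2.14 FPKM in controls. CD14, at 4.61 and 3.61 FPKM after GMI, against 2.11 and 2.0 FPKM, made up nearly all of this sum and was called higher (log2 fold change 0.74, limma adjusted p = 0.0092). PTPRC and CD3E were listed at 0 in every library, and the part of these marker levels in the results was not tested. The other lists stayed low: 6 fibroblast markers summed to 1.28 to 1.36 FPKM in GMI libraries and 1.27 to 1.36 FPKM in controls, and 3 endothelial markers to 0.02 to 0.07 and 0.01 to 0.02 FPKM.

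Of the 4 initiation genes, 3 rose. ULK1, the kinase that starts autophagosome formation, had 17.21 and 14.68 FPKM in the GMI libraries, against 12 and 12.46 FPKM in the controls (log2 fold change 0.35, SE 0.087, limma adjusted p = 0.0395). ATG13, the adaptor that mTORC1 phosphorylates, had 12.75 and 13.14 FPKM after GMI, against 10.54 and 10.25 FPKM (0.29, SE 0.066, limma adjusted p = 0.0303). The scaffold gene RB1CC1, also called FIP200, had 5.78 and 6.01 FPKM after GMI, against 4.18 and 4.68 FPKM in controls (0.35, SE 0.083, limma adjusted p = 0.0368). In these 3 genes the groups did not overlap, as in all 15 called members, and both GMI libraries lay above both controls for 29.8% of all genes. ULK2, the paralogue of ULK1, was far lower and its groups overlapped, with 1.79 and 1.45 FPKM after GMI and 1.64 and 1.67 FPKM in controls (-0.02, 95% interval -0.28 to 0.23). The ratio of ULK1 to ULK2 was 9.62 and 10.1 in GMI libraries and 7.32 and 7.46 in controls. Summed FPKM of the 4 genes was 36.4 ± 1.59 after GMI and 28.7 ± 0.495 in controls (SD, n = 2 each, as in all such values). These calls were near the threshold: the 3 genes passed neither without a control (adjusted p 0.187 to 0.248 without replicate 1, 0.151 to 0.239 without replicate 2) nor without GMI replicate 1 (0.0561 to 0.0891), and without GMI replicate 2 only ULK1 did (0.0319).

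No gene of the nucleation complex passed. BECN1, the scaffold of the lipid kinase complex, was the most abundant, with 14.23 and 14.47 FPKM after GMI and 12.99 and 13.09 FPKM in controls (log2 fold change 0.13, 95% interval -0.02 to 0.28). AMBRA1, which binds BECN1, had 4.75 and 4.46 FPKM, against 3.94 and 4.18 FPKM (0.15). ATG14, which directs the complex to autophagy, had 2.93 and 2.74 FPKM after GMI, against 2.51 and 2.64 FPKM (0.10). In these 3 genes both GMI libraries lay above both controls, as for 29.8% of all genes tested, but the differences did not pass the test. UVRAG, of the alternative complex, lay the other way, at 2.49 and 2.26 FPKM after GMI, against 2.71 and 2.65 FPKM (-0.13). So did PIK3R4, the regulatory subunit, at 3.96 and 3.59 FPKM, against 4.20 and 4.36 FPKM (-0.15). The catalytic subunit PIK3C3 had the lowest level, 1.18 and 1.08 FPKM after GMI and 1.15 and 1.29 FPKM in controls. Adjusted p in this group ranged from 0.214 to 0.748 with limma, its median log2 fold change was 0.02, and the 95% intervals reached from -0.35 to 0.34, so changes of that size are not excluded by these data.

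Of the 7 membrane supply genes, 3 rose. WIPI1, a reader of phosphatidylinositol 3-phosphate, rose to 14.06 and 14.36 FPKM in GMI libraries, against 8.33 and 8.72 FPKM in controls (log2 fold change 0.68, SE 0.067, limma adjusted p = 0.002). WDR45, also called WIPI4 and of the same propeller family, had 17.79 and 19.52 FPKM after GMI, against 11.76 and 11.72 FPKM (0.62, SE 0.071, limma adjusted p = 0.00332). ATG2A, which carries lipid between membranes, had 10.72 and 10.10 FPKM after GMI, against 7.40 and 7.08 FPKM (0.47, SE 0.072, limma adjusted p = 0.00892). In each of these genes the lower GMI library stood well above the higher control. Their paralogues did not pass, and that of WDR45 lay the other way. This gene, WDR45B, is in the list of further autophagy genes and was singled out after its value was seen. WDR45B had 20.29 and 20.17 FPKM after GMI, against 23.97 and 23.3 FPKM in controls (-0.21, 95% interval -0.36 to -0.07, limma adjusted p = 0.0575). WIPI2, which recruits the conjugation machinery, had 8.57 and 8.19 FPKM after GMI and 8.02 in both controls (0.06, 95% interval -0.11 to 0.22), and ATG2B had 2.64 and 2.59 FPKM, against 2.37 and 2.43 FPKM (0.09, 95% interval -0.12 to 0.29). The ratio of WIPI1 to WIPI2 within a library was 1.64 and 1.75 after GMI and 1.04 and 1.09 in controls. ATG9A, the lipid scramblase that seeds the membrane, had 10.97 and 9.96 FPKM after GMI, against 9.11 and 8.89 FPKM, and did not pass (0.20, limma adjusted p = 0.126). VMP1, a scramblase of the endoplasmic reticulum and one of the most abundant members, overlapped between groups at 36.93 and 41.34 FPKM, against 37.05 and 38.02 FPKM. Without control replicate 1 or 2 the adjusted p of the 3 genes that rose was 0.0652 to 0.104 and 0.0622 to 0.132, and all 3 passed without either GMI library.

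The 9 genes of the conjugation system showed no call and had a median log2 fold change of -0.01. Their summed FPKM was 54.5 ± 0.0495 after GMI and 54.8 ± 0.382 in controls. ATG7, the activating enzyme, had 2.22 and 2.29 FPKM after GMI, against 2.58 and 2.70 FPKM in controls (-0.16, limma adjusted p = 0.257, the smallest of the group). ATG3, the conjugating enzyme for ATG8 proteins, had 8.84 and 9 FPKM, against 9.56 and 9.61 FPKM (-0.09). For these enzymes both GMI libraries lay below both controls, as for 30.4% of all genes tested. The protease ATG4A, which trims ATG8 proteins, was the only one above, at 8.88 and 8.62 FPKM, against 8.06 and 8.18 FPKM (0.10). ATG16L1, which with ATG5 and ATG12 forms the ligase-like complex, had 7.26 and 7.06 FPKM after GMI and 6.95 and 7.28 FPKM in controls. ATG5 (6.66 and 7.82 FPKM, against 6.92 and 7.78), ATG12 (4.25 and 4.64, against 4.18 and 4.70) and ATG10 (1.74 and 1.78, against 1.75 and 1.80) overlapped between groups as well. So did the proteases ATG4B, at 8.06 and 7.44 FPKM after GMI and 7.77 and 8.22 FPKM in controls, and ATG4D, at 6.59 and 5.78 FPKM and 6.75 and 4.79 FPKM. The 95% intervals of the group reached from -0.37 for ATG7 to 0.44 for ATG4D.

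All 5 ATG8 genes had both GMI libraries above both controls, against 29.8% of all genes tested. Of the 5, 3 passed the test, against 9.3% of all genes called higher. GABARAPL1, whose protein works late in autophagosome closure and binds many receptors, had the highest log2 fold change of all members: 21.13 and 21.83 FPKM after GMI, against 12.97 and 12.58 FPKM in controls (log2 fold change 0.71, SE 0.063, limma adjusted p = 0.00156). GABARAPL2, also called GATE-16, had 18.45 and 20.50 FPKM after GMI, against 16.01 and 15.29 FPKM (0.30, SE 0.074, limma adjusted p = 0.0416). MAP1LC3A, the scarce LC3 gene, had 5.87 and 4.62 FPKM after GMI, against 3.34 and 3.27 FPKM (0.53, SE 0.110, limma adjusted p = 0.0238). The GMI libraries of MAP1LC3A differed more from each other than its controls did. GABARAP, the most abundant of the family, had 45.56 and 54.48 FPKM after GMI, against 39.96 and 39.80 FPKM, and missed the threshold (0.31, 95% interval 0.10 to 0.53, limma adjusted p = 0.0588). MAP1LC3B, the usual marker of autophagosomes, had 25.19 and 29.79 FPKM after GMI, against 23.31 and 22.53 FPKM, and did not pass either (0.25, 95% interval 0.04 to 0.46, limma adjusted p = 0.104). Its near-identical copy MAP1LC3B2, which can share fragments with it, had 6.38 and 5.70 FPKM after GMI, against 4.62 and 4.69 FPKM (0.31, limma adjusted p = 0.0475), so both values are uncertain. GABARAP and MAP1LC3B did pass without GMI replicate 1 (GABARAP 0.44, limma adjusted p = 0.01895; MAP1LC3B 0.36, limma adjusted p = 0.0325), and over the 4 left-out libraries their log2 fold changes ran from 0.19 to 0.44 and from 0.13 to 0.36.

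Together the 5 ATG8 genes summed to 116 and 131 FPKM in GMI libraries and 95.6 and 93.5 FPKM in controls. The share of GABARAPL1 in that sum was 18.2% and 16.6% after GMI and 13.6% and 13.5% in controls. GABARAP kept the largest share, 39.2% and 41.5% after GMI and 41.8% and 42.6% in controls. GABARAPL1 stood above GABARAPL2 in both GMI libraries (ratio 1.145 and 1.065) and below it in both controls (0.810 and 0.823). GABARAPL1 passed when either GMI library was left out, but not when control replicate 1 (adjusted p = 0.0532) or 2 (0.0622) was. MAP1LC3A was lost without GMI replicate 1 (log2 fold change 0.38, adjusted p = 0.0595) and without control replicate 1 or 2, and GABARAPL2 without GMI replicate 2 (0.22, adjusted p = 0.115) and without control replicate 1 or 2 (adjusted p of both genes 0.170 to 0.287).

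**Figure D2:**
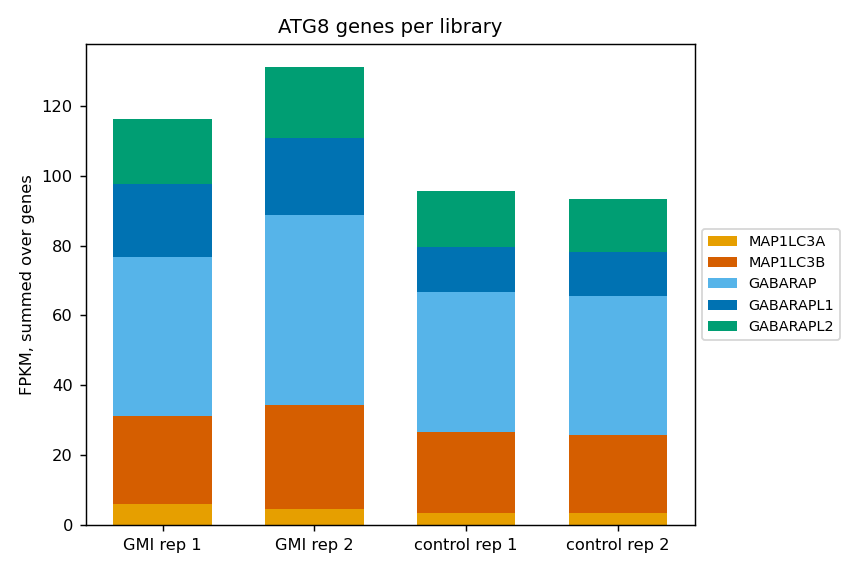
FPKM of the 5 ATG8 genes stacked per library, GMI libraries left of controls, with the y axis starting at 0. The stacks reach 116 and 131 FPKM after GMI and 95.6 and 93.5 FPKM in controls, and GABARAP is the largest layer in each.

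Of the 7 genes of cargo selection, 3 rose. SQSTM1, or p62, which links ubiquitinated cargo to ATG8 proteins, was the most abundant of all 47 members, at 400.44 and 397.70 FPKM in GMI libraries and 295.18 and 300.15 FPKM in controls (log2 fold change 0.42, SE 0.054, limma adjusted p = 0.00491). Its libraries agreed closely within each group. The mitophagy receptor gene BNIP3L, also called NIX, had 21.05 and 23.18 FPKM after GMI, against 17.66 and 17.35 FPKM (0.32, SE 0.070, limma adjusted p = 0.0279). OPTN, optineurin, had 15.85 and 17.36 FPKM after GMI, against 13.38 and 13.55 FPKM (0.28, SE 0.071, limma adjusted p = 0.0416). The other receptors did not pass. CALCOCO2, or NDP52, had 6.83 and 7.22 FPKM after GMI, against 6.41 and 6.10 FPKM (0.15). NBR1, the relative of SQSTM1, lay slightly the other way, with 11.38 and 11.84 FPKM, against 11.89 and 12.33 FPKM (-0.06, 95% interval -0.22 to 0.10). TAX1BP1 had 18.34 and 19.22 FPKM after GMI, against 19.34 and 20.88 FPKM (-0.09). TBK1, the kinase that phosphorylates OPTN and SQSTM1, overlapped between groups at 6.73 and 7.40 FPKM, against 6.78 and 7.30 FPKM. SQSTM1 made up 83.3% and 82.2% of the summed FPKM of these genes after GMI and 79.6% and 79.5% in controls, and its ratio to NBR1 was 35.2 and 33.6 after GMI and 24.8 and 24.3 in controls. SQSTM1 did not pass when control replicate 1 (log2 fold change 0.41, adjusted p = 0.0854) or 2 (0.43, 0.0882) was left out. OPTN and BNIP3L were lost without GMI replicate 2 as well (adjusted p up to 0.111), and without control replicate 1 or 2 (up to 0.245 and 0.248).

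The fusion genes were among the lowest of the set. STX17, the syntaxin of the autophagosome, had 1.26 and 1.01 FPKM after GMI and 1.21 and 1.14 FPKM in controls (log2 fold change -0.03, 95% interval -0.30 to 0.24). EPG5, a tether for lysosome fusion, had 1.43 and 1.35 FPKM after GMI and 1.34 and 1.56 FPKM in controls (-0.03, 95% interval -0.28 to 0.21). Both overlapped between groups, and changes within these intervals are not excluded by these data.

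Of the 7 mTORC1 genes, 3 rose. FLCN, folliculin, which acts on RagC and RagD as a GTPase activator, had 4.31 and 4.46 FPKM after GMI, against 2.73 and 2.76 FPKM in controls (log2 fold change 0.52, SE 0.080, limma adjusted p = 0.00887). RRAGD, the gene of the RagD GTPase, had 4.61 and 5.49 FPKM after GMI, against 2.78 and 3.22 FPKM (0.60, SE 0.106, limma adjusted p = 0.0142). RRAGC, the gene of RagC, had 8.37 and 9.37 FPKM after GMI, against 6.55 and 5.75 FPKM (0.47, SE 0.091, limma adjusted p = 0.0197). In all 3 the groups were clearly apart. The kinase gene MTOR and its substrate-binding partner RPTOR lay the other way without passing. MTOR had 3.89 and 3.22 FPKM after GMI, against 3.99 and 4.36 FPKM (-0.19, 95% interval -0.43 to 0.05, limma adjusted p = 0.256). RPTOR had 6.18 and 5.52 FPKM after GMI, against 6.65 and 7.10 FPKM (-0.20, 95% interval -0.40 to -0.0037, limma adjusted p = 0.149). Of the TSC complex, which switches mTORC1 off through the GTPase RHEB, TSC1 had 3.38 and 2.86 FPKM after GMI, against 2.33 and 2.56 FPKM (0.26, limma adjusted p = 0.135). TSC2 overlapped between groups, at 8.05 and 6.84 FPKM after GMI and 7.62 and 8.23 FPKM in controls (-0.08). Of the 3 genes that rose, FLCN alone passed without GMI replicate 2 (adjusted p = 0.0446), RRAGC and RRAGD missed it (up to 0.0797), all 3 passed without GMI replicate 1, and 0 passed without control replicate 1 (0.106 to 0.146) or 2 (0.105 to 0.193).

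**Figure D3:**
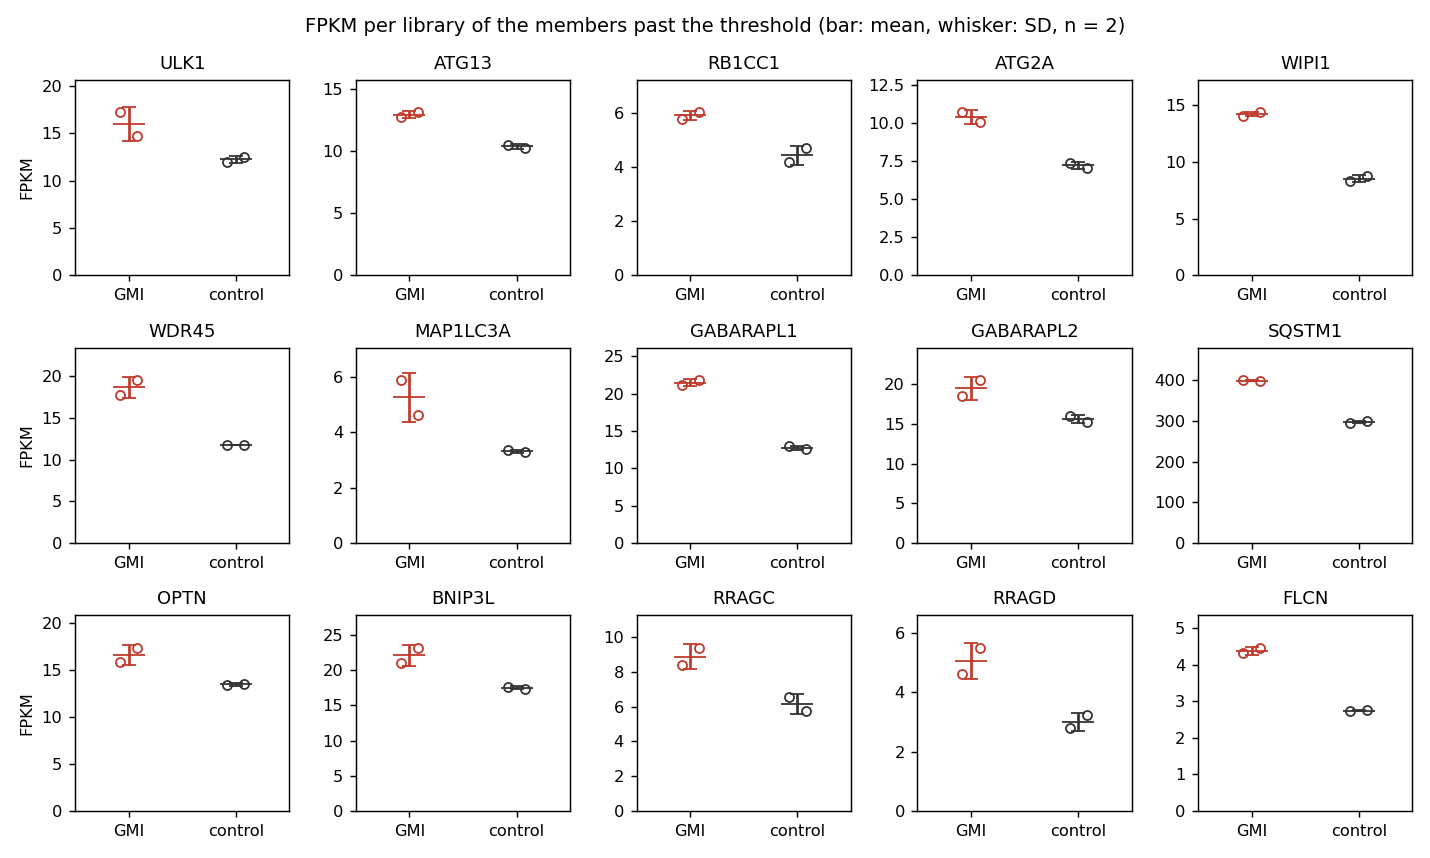
FPKM (y axis from 0, its own scale in each panel) of the 15 members that passed the test, with GMI left of control. Circles are single libraries, horizontal bars the means and whiskers the SD over 2 libraries, and in each panel both GMI libraries lie above both controls.

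Other genes of these pathways were taken from 4 lists with 87 genes in the files, of which 74 were above the filter. Of these, 12 were called higher and 1 lower (16.2% and 1.35%, against 9.3% and 6.12% of all genes tested). The 12 include ATG9B and FOXO4, which were below 1 FPKM in both controls and so could be tested because they were high in the GMI libraries; these counts are descriptions. Without control replicate 1 or 2, 0 of the 74 passed, and without GMI replicate 2, 4 were higher.

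Among 32 further autophagy genes above the filter, 6 were higher, ATG9B among them, and 0 lower, against 9.3% and 6.12% of all genes tested. PLEKHM1, an adaptor that brings lysosomes to autophagosomes, had 8.54 and 8.28 FPKM after GMI, against 5.68 and 5.76 FPKM (log2 fold change 0.49, limma adjusted p = 0.00732). RAB7A, the late endosomal GTPase that recruits it, had 103.64 and 102.72 FPKM, against 83.37 and 83.50 FPKM (0.30, limma adjusted p = 0.0139). For both genes the GMI libraries lay above the controls, as for 29.8% of all genes tested. RETREG1, a receptor for autophagy of the endoplasmic reticulum, had 2.28 and 2.44 FPKM after GMI, against 1.36 and 1.33 FPKM (0.52, limma adjusted p = 0.0152). ATG9B, the paralogue of ATG9A, had 1.44 and 1.23 FPKM after GMI, against 0.36 and 0.44 FPKM, and passed the filter through the GMI libraries alone. ATG101, the partner of ATG13 and a gene of the list singled out here after its value was seen, had 30.11 and 30.39 FPKM after GMI, against 24.90 and 21.93 FPKM (0.36, limma adjusted p = 0.0245). The sixth was MAP1LC3B2.

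Among 31 further mTORC1 genes above the filter, 5 were higher and 0 lower, against 9.3% and 6.12% of all genes tested. DDIT4, or REDD1, a stress-induced inhibitor of mTORC1 upstream of the TSC complex, had 255.18 and 271.29 FPKM after GMI, against 163.70 and 157.81 FPKM (log2 fold change 0.71, limma adjusted p = 0.00134). TBC1D7, the small subunit of the TSC complex, had 3.65 and 4.48 FPKM, against 2.57 and 2.10 FPKM (0.60, limma adjusted p = 0.0199). FNIP1, the partner of FLCN, had 3.61 and 4.42 FPKM, against 2.42 and 2.65 FPKM (0.50, limma adjusted p = 0.0253). In these genes, as in FLCN and in 29.8% of all genes tested, both GMI libraries stood above both controls. LAMTOR5, of the scaffold that anchors Rag GTPases to the lysosome, had 45.59 and 52.34 FPKM, against 37.88 and 34.81 FPKM (0.42, limma adjusted p = 0.0211). RRAGB, of the same list and singled out after its value was seen, had 9.48 and 10.42 FPKM, against 7.67 and 8.06 FPKM (0.30, limma adjusted p = 0.0429). RRAGA, its more abundant paralogue, had 74.66 and 80.72 FPKM, against 67.45 and 64.93 FPKM, and missed the threshold (0.23, limma adjusted p = 0.0576). None of the 6 genes of AMPK and LKB1 above the filter passed.

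**Figure D4:**
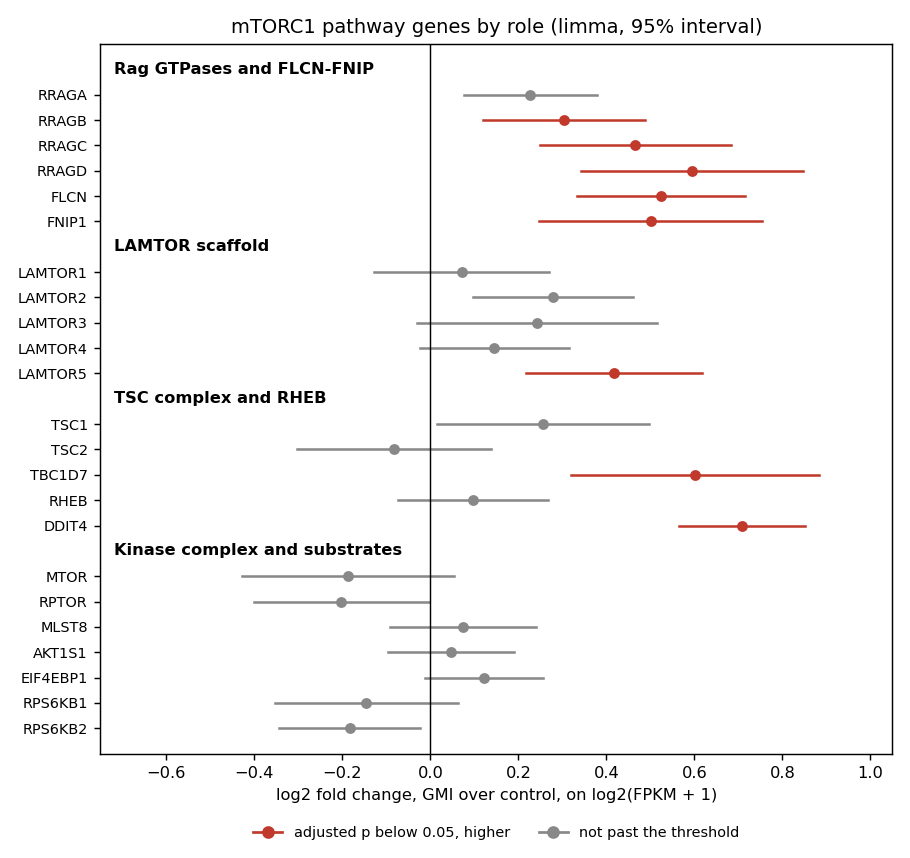
Log2 fold change (x axis, GMI over control on log2(FPKM + 1)) with 95% confidence interval for mTORC1 pathway genes grouped by role, members and other genes together, a grouping made after the values were seen. Genes past an adjusted p of 0.05 (red) lie in the Rag and folliculin group (all drawn but RRAGA), the LAMTOR scaffold (LAMTOR5 alone) and the TSC group. In the TSC group TBC1D7 and DDIT4, which acts upstream of the complex, passed, and TSC1, TSC2 and RHEB did not. Genes of the kinase complex and its substrates (grey) did not pass. Not every mTORC1 gene tested is drawn. Those left out, among them SESN1, SESN2, NPRL2, MIOS, WDR59 and KPTN, did not pass either.

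Of 5 genes of the TFEB and FOXO families above the filter, transcription factors known to act on autophagy genes, MITF was lower, and FOXO4 was higher but entered the test through the GMI libraries alone. TFE3, the most abundant of the TFEB family here, had 21.27 and 19.34 FPKM after GMI, against 22.75 and 23.43 FPKM in controls (log2 fold change -0.18, limma adjusted p = 0.134). TFEB had 1.72 and 1.33 FPKM after GMI, against 2.11 and 1.84 FPKM (-0.24, limma adjusted p = 0.213). MITF, of the same family, was called lower, with 1.26 and 1.49 FPKM after GMI, against 2.09 and 2.59 FPKM (-0.49, limma adjusted p = 0.0354), and lost its call without any 1 library. All 3 had both GMI libraries below both controls, as had 30.4% of all genes tested. FOXO4, a forkhead factor, had 1.01 and 1.00 FPKM after GMI, against 0.41 and 0.48 FPKM in controls.

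Promoter sequences (RefSeq, GRCh38.p14, 250 bases before to 50 after each gene's start) were matched for 39 of the 47 members, 11 of them among the 15 that rose. Only 1 promoter was kept per gene symbol. The E-box CACGTG, the core of the motif bound by TFEB and TFE3, is shown because these factors are known regulators of autophagy genes. It reads the same on both strands. It occurred in 5 of the 39 promoters (12.8%), against 10.6% of 7932 promoters of genes tested and 7.43% of all 27305 in the table. Among the 11 that rose 1 held it, that of RRAGC, and among the other 28 there were 4. Of the 730 promoters of all genes called higher, 97 held it (13.3%). In all 5 promoters a match extended to TCACGTG on either strand, which contains the first motif. TCACGTG occurred in 6.22% of promoters of genes tested, 9.45% of those of genes called higher and 3.82% of all promoters. The matches are printed below in the direction of each gene, 5′ to 3′, with CACGTG in capitals and 12 bases on each side; ATG3 has a match on each side of its start.
ATG14: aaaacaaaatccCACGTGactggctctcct
ATG3 upstream: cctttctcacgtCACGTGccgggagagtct
ATG3 downstream: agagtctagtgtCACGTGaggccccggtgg
TBK1: ccggccgtcggtCACGTGgcctccggccag
TSC2: atgcggccccgtCACGTGatgcaaggatcg
RRAGC: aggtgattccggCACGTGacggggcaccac

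The first base of the match lies at position -21 from the start of ATG14 (chr14:55411834-55411863, minus strand), at -18 and 5 from that of ATG3 (chr3:112561963-112561992 and chr3:112561940-112561969, minus strand), at -31 from that of TBK1 (chr12:64452077-64452106, plus strand) and at -114 from that of TSC2 (chr16:2047859-2047888, plus strand). In RRAGC it lies at -112 from the start (chr1:38859867-38859896, minus strand). RRAGC was the only member that rose among these 5 genes, and ATG14, ATG3, TBK1 and TSC2 had log2 fold changes of 0.10, -0.09, 0.00 and -0.08. The RRAGC promoter (chr1:38859723-38860022, minus strand) is printed whole, since it also held TGAGTCA, a match to the AP-1 type motif TGANTCA on either strand; both motifs are in capitals.
RRAGC promoter: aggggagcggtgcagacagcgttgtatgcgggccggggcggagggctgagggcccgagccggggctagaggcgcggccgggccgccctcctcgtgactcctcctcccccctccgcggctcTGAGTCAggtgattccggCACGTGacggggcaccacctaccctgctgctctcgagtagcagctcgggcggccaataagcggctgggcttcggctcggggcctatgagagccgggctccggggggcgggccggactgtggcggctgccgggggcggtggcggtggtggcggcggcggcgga

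TGANTCA occurred in 1 of the 39 member promoters in 4.59% of those of genes tested and in 7.76% of all promoters. The forkhead core GTAAACA, searched on both strands, occurred in 1, that of CALCOCO2, in 2.29% of those of genes tested and in 3.41% of all promoters. A match is a description of these letters and not a site. These windows are on another build than the one the submitters name, and coordinates of the different builds were not joined.

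Level and change were weakly related. Of the 29 members at a control mean of 5 FPKM or more, 11 rose, and of the 18 below, 4 did. Calls depended on level in the whole table too. A refit to the 6070 genes at a mean FPKM of at least 5 called 1003 higher, against 1079 of 11598 in the main fit. The split by control mean was not made for all genes, so it is not read as a trait of the members. Spearman's rho between control level and log2 fold change was 0.31 over the 47 members and -0.02 over all genes tested, where the points share the same 4 libraries and genes are not independent replicates. Exons shared with other genes limit some values, because the strand setting of the counting is not stated: in GENCODE 29, 55.7% of the exon bases of GABARAP, 38.8% of ATG9A, 28.1% of WIPI1, 22.9% of RRAGC and 22.0% of SQSTM1 overlap exons of another gene. For ATG7 this share is 18.1%, and for the other members it is at most 17.1%.

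**Figure D5:**
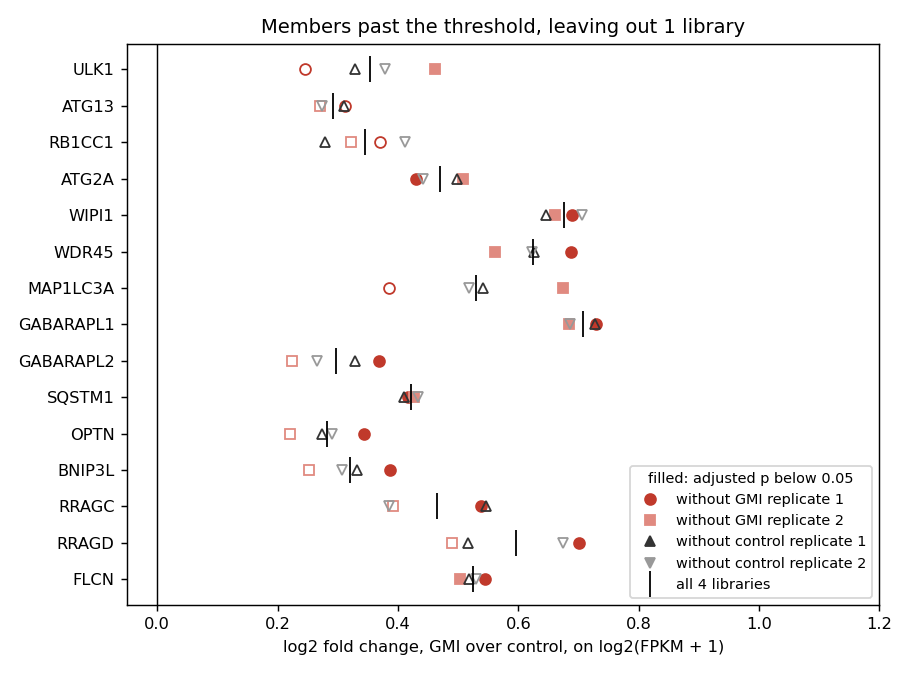
Log2 fold change (x axis, GMI over control on log2(FPKM + 1)) of the 15 members that passed, with all 4 libraries (black tick) and with each library left out in turn (symbols, filled where the adjusted p was below 0.05). In all 15 both GMI libraries lay above both controls, so no value could fall left of 0. All values lie to the right of 0, from 0.22 for OPTN to 0.73 for GABARAPL1, and all symbols for fits without a control are open.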

How the data were processed

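Total RNA of A549 cells was sequenced in 2 GMI and 2 control libraries. The authors deposited FPKM per gene, 1 column per library, to 2 decimals. The submitters' processing notes name HISAT2 2.0.1, cutadapt 1.9.1, bcl2fastq 2.17.1.14, HTSeq 0.6.1 and the build GRCh37; annotation release, strand setting and gene lengths: not given in the sources used here. Genes at 1 FPKM or more in at least 2 libraries (11598 of 57905) were fitted with limma 3.58.1 (R 4.3.3) on log2(FPKM + 1) with the prior variance trended on mean level and group as the single term, followed by Benjamini-Hochberg adjustment (threshold 0.05). The prior had 4.69 degrees of freedom beside 2 residual ones. The procedure was tested on simulated data. Library totals were the denominators that made 95.8% to 96.8% of the FPKM of genes up to 200 nt whole multiples of 1 fragment, within 0.006 FPKM, against 2.82% to 3.21% by chance. Exon lengths and overlaps came from GENCODE 29. Python 3.11.15, numpy 2.4.6 and pandas 2.3.3 were used.

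The members, lists and motifs were chosen with earlier results of these data known. All members are named; of each other list, up to 4 genes past the threshold with the smallest adjusted p and TFEB, TFE3 and MITF are named, and exceptions are stated. Of the marker genes, PECAM1 was not analysed here, and values of single markers are given for some. Alternatives covered the pseudocount, filter, scaling, variance trend, replicate block and each library left out.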

Additional observations from a re-analysis of the deposited data

How the results depend on the processing

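The 15 higher members and the 12 higher other genes stayed within 1.5 times their number with pseudocounts of 0.1 and 0.5, a mean FPKM of at least 5, median-ratio scaling, FPKM rescaled to equal sums, and no variance trend. Some calls were lost in these settings. Without the trend 10 of the 15 passed, and ULK1, ATG13, GABARAPL2, OPTN and BNIP3L did not (limma adjusted p 0.0529 to 0.0732). With rescaled FPKM 13 passed, and ULK1 and OPTN did not (limma adjusted p 0.0505 and 0.0546). At a mean FPKM of at least 5, 12 of the 15 were tested and all 12 passed. With no filter 26758 genes were tested and 0 members were higher, with 0 higher and 0 lower other genes, against 1 lower in the main setting; 1 gene of the whole table passed, and limma gave the 15 members adjusted p from 0.052 to 0.196. With rescaled FPKM, 2 other genes were lower. Leaving out 1 library gave 0 to 13 higher members, 0 to 0 lower members, 0 to 11 higher and 0 to 0 lower other genes, and 28 to 856 higher and 17 to 513 lower genes in the whole table.

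No called member changed sign. In the fits that left out 1 library this was fixed in advance, because both GMI libraries lay above both controls in each called member. Of members that had not passed, rescaled FPKM turned ATG12 (-0.0188), ATG16L1 (-0.0129) and TBK1 (-0.0175), a setting that moved the median of all genes to -0.03. Leaving out 1 library gave both signs for ULK2 (-0.1159 to 0.0716), VMP1 (-0.0227 to 0.136), ATG4B (-0.0914 to 0.0108), ATG4D (-0.1115 to 0.3091), ATG5 (-0.1225 to 0.0809), ATG10 (-0.0208 to 0.0052), ATG12 (-0.067 to 0.0711), ATG16L1 (-0.0212 to 0.0375), TBK1 (-0.056 to 0.0639), EPG5 (-0.0993 to 0.0303), STX17 (-0.1136 to 0.0555) and TSC2 (-0.1862 to 0.0209). GABARAP passed at a mean FPKM of at least 5 (adjusted p = 0.022). With the replicate number as a block 16 members were higher, the 15 and GABARAP (adjusted p = 0.0265). Same-numbered libraries did not deviate together over the genes as a whole (correlation -0.04 across 11598 genes). That value cannot show whether they share a culture or batch, since an effect on few genes could be missed. The causes were not tested.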
